A study of Mus musculus with 4 samples.

Results

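Enzymes of heme synthesis are described here in LSK cells of mouse bone marrow, which lack lineage markers and carry cKit and Sca1, and among which are the hematopoietic stem cells and early progenitors. The 8 genes are Alas1, Alas2, Alad, Uros, Urod, Cpox, Ppox and Fech, taken by symbol from the probe annotation in the order of the pathway, and are not every enzyme of it. They are 8 of 18193 genes measured and are read by 19 probe sets. For each gene the probe set with the highest mean log2 intensity over the 4 arrays gives the main value, and the 11 other probe sets are given beside it.

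Heme is built from glycine and succinyl-CoA by a pathway that begins and ends in mitochondria and runs through the cytosol in between. The first step, catalysed by aminolevulinate synthase, limits the rate and has 2 forms, Alas1 in most cells and Alas2 in the erythroid lineage, where most of the heme of the body is made for hemoglobin. Alas1 is held down by heme itself, whereas Alas2 follows the erythroid program and the iron supply. Stem cells and early progenitors need heme mainly for cytochromes and other enzymes.

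The study compared WT mice, of genotype Ncstn flox/flox, with Ncstn KO littermates, of genotype Ncstn flox/flox Mx1-cre+. Ncstn encodes nicastrin, a subunit of gamma-secretase. The Mx1 promoter that drives cre responds to interferon in many cell types, and every mouse was given polyIC, which induces interferon, 3 times at 20 µg per g of body weight from 14 days of age. Cells were taken 4 weeks after injection, at 6 weeks of age. Only the Ncstn KO mice carried cre, so cre and the loss of Ncstn cannot be told apart. Each group held 2 arrays, of 1 female and 1 male: WT replicate 1 and Ncstn KO replicate 2 were male, WT replicate 2 and Ncstn KO replicate 1 female. Values are log2 intensities, and a difference is the Ncstn KO mean minus the WT mean, given with its standard error (SE) from the limma fit.

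Ncstn, the targeted gene, read 9.05 and 8.98 on the WT arrays and 7.58 and 7.91 on the Ncstn KO arrays, a difference of -1.27 (SE 0.22, limma adjusted p = 0.257 over all genes), though the sources used here do not place its probe set relative to the deleted part. A second, dimmer Ncstn probe set read 6.81 and 6.79 in WT and 5.86 and 7.09 in Ncstn KO, with overlapping groups, and the mean of both probe sets differed by -0.80 (limma adjusted p = 0.696). Xist, Kdm5d, Uty and Eif2s3y matched the labelled sex on all 4 arrays. Of the LSK markers, Kit read 11.57 to 11.94 and Cd34 12.77 to 12.81, while Ly6a, which encodes Sca1, was not analysed here. Of 7 LSK markers measured, 1 had both Ncstn KO arrays above WT (21.3% of all genes), 1 below (12.8%) and 5 overlapped, with a median of 0.08. The higher one, Slamf1, read 10.44 and 9.64 in WT and 11.07 and 10.68 in Ncstn KO (difference 0.83, SE 0.28, limma adjusted p = 0.633). Median intensity ran from 71.6 to 79.2. The hybridization controls, spiked into every sample, read 0.20 higher in Ncstn KO, and scaling to them takes that amount off the difference of every gene. The 3' minus 5' log2 difference of the actin control was 0.89 and 0.79 in WT and 1.02 and 0.94 in Ncstn KO. That of Gapdh overlapped, at 0.71 and 0.65 in WT and 0.69 and 0.77 in Ncstn KO.

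No heme synthesis gene passed the test between genotypes. At a limma adjusted p under 0.05 the fit called 0 of the 8, as it called 0% of all genes, and 2 of the 8 had an unadjusted p under 0.05, against 6.80% of all genes. These were Alas2 on the lower side, where 1.84% of all genes lay, and Urod on the higher side, where 4.96% lay. Without a test, 3 genes (Alas2, Uros and Cpox) had both Ncstn KO arrays below each WT array, a pattern found in 12.8% of all genes. A further 2 (Alas1 and Urod) had both Ncstn KO arrays above both WT arrays, found in 21.3% of all genes, and Alad, Ppox and Fech overlapped. The median difference of the 8 was -0.13, beside 0.02 over all genes, and ran from -1.30 to 0.40. For 1 gene and groups of 2, no exact permutation p (two-sided) can fall below 0.333.

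**Figure D1:**
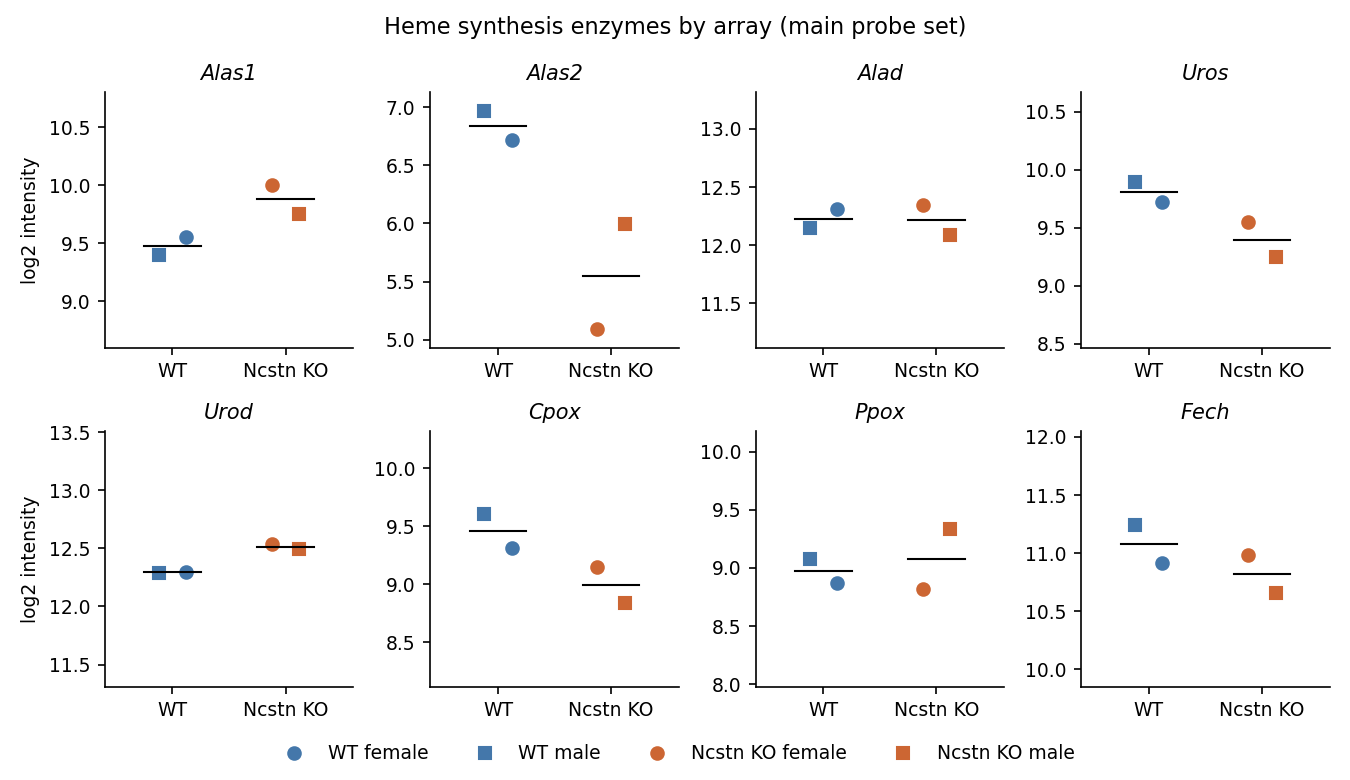
Log2 intensity (vertical axis, each panel spanning the same range) of the main probe set of each heme synthesis gene on the 4 arrays, with WT in blue, Ncstn KO in orange, circles for females, squares for males and a line at each group mean of n = 2. Alas2, Uros and Cpox lie lower on both Ncstn KO arrays, Alas1 and Urod lie higher on both, and the groups overlap for Alad, Ppox and Fech.

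The 2 forms of the first enzyme lay on opposite sides of WT. Alas2 read 6.97 (male) and 6.72 (female) in WT, and 5.09 (female) and 5.99 (male) in Ncstn KO. Both Ncstn KO arrays lay below each WT array, and the lowest was the female Ncstn KO array. The means were 6.84 ± 0.18 (SD, n = 2) in WT and 5.54 ± 0.64 (SD, n = 2) in Ncstn KO, a difference of -1.30 (SE 0.36, limma adjusted p = 0.532) or 2.46-fold. It was the only member to differ by at least 2-fold with separate arrays, a pattern seen downward in 0.517% of all genes. Its intensity was 105 to 125 in WT and 34.2 to 63.7 in Ncstn KO, and its mean log2 value of 6.19 is below the median of 8.04 over all genes, so it was read from a dim signal by 1 probe set. The difference was -1.62 between the females and -0.98 between the males, and -0.85 without Ncstn KO replicate 1.

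Alas1, the form of most cells, read 9.40 and 9.55 on the WT arrays and 10.01 and 9.75 on the Ncstn KO arrays. Both Ncstn KO arrays were higher, by 0.40 (SE 0.17, limma adjusted p = 0.768) or 1.32-fold on the means. On the main probe set the pairs of females and of males gave 0.45 and 0.35. The second Alas1 probe set gave 0.37, again with separate groups. Its name ends in x_at, a suffix the platform gives to sets in which some probes can match other transcripts. Scaled to the hybridization controls, the main difference was 0.21, still with separate groups.

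Promoter sequence is shown for 4 starts. Of these, 3 are the only ones among the 10 starts of the heme synthesis genes to hold the motif GATAA. They are the starts of Alas2 and Cpox and the downstream start of Uros, and 22.6% of all 32851 starts hold the motif. The motif was chosen with the values of the genes in view, so its place in these genes says nothing about their direction. Alas1 is set beside them. The sequences are the 250 bases before the transcription start in RefSeq, assembly GRCm38.p6, written 5' to 3' on the strand of the gene. Capitals mark GATAA, the core of sites bound by GATA factors, or CACCC, the core of sites bound by Klf1 and related factors, searched on both strands, so that a reverse match reads TTATC or GGGTG. The windows are chrX:150547167-150547416 (plus strand) for Alas2, chr16:58669958-58670207 (plus strand) for Cpox, chr7:133702501-133702750 (minus strand) for the downstream start of Uros and chr9:106247955-106248204 (minus strand) for the upstream start of Alas1.
Alas2: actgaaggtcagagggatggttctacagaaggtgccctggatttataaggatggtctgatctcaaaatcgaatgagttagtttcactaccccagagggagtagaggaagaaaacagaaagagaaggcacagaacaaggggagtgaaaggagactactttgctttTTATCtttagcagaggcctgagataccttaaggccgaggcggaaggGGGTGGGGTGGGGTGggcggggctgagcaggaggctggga
Cpox: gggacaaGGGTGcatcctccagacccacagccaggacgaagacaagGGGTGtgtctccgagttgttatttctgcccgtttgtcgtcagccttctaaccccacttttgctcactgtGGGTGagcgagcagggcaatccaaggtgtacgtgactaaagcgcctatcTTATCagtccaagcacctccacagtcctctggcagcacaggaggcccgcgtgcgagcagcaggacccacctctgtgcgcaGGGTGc
Uros: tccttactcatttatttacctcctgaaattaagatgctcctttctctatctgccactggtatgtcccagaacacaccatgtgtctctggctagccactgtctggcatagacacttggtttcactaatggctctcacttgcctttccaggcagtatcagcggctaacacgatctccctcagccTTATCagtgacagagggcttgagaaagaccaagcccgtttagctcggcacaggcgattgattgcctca
Alas1: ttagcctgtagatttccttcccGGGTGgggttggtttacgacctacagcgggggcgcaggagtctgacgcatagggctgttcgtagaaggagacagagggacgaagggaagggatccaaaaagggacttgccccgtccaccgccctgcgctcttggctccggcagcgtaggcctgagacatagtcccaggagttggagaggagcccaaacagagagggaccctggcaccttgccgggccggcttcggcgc

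Of the 8 genes 7 had an entry, with 10 starts in all, 2 each for Alas1, Alad and Uros. Fech had none and was not searched. GATAA stood before 3 of the 10 starts, 1 each of Alas2, Cpox and Uros, against 22.6% of all 32851 starts of the same window. In Alas2 and in Cpox it covered bases 86 to 82 before the start, and in Uros bases 68 to 64 before the downstream start, which lies 6795 bases from the upstream one, whose window held none. CACCC stood 3 times before Alas2 (bases 40 to 26) and 4 times before Cpox, once before each start of Alas1, once before the downstream start of Alad, and before 52.0% of all starts. The motifs overlapped nowhere in these windows. These matches describe the letters only; binding was not measured, and the motifs were chosen with the values of the genes in view.

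The cytosolic steps followed no common direction. Alad, aminolevulinate dehydratase, which joins 2 aminolevulinate molecules into porphobilinogen, read 12.14 and 12.31 in WT and 12.35 and 12.09 in Ncstn KO. The groups overlapped and the difference was -0.01 (SE 0.12, limma adjusted p = 1.0). A dimmer Alad probe set, at a mean of 7.49, gave -0.11 with overlap.

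Uros, uroporphyrinogen III synthase, which closes the ring in the usable isomer, read 9.89 and 9.72 in WT and 9.55 and 9.25 in Ncstn KO. Both Ncstn KO arrays were lower, by 0.41 on the means (a difference of -0.41, SE 0.18, limma adjusted p = 0.776). The second Uros probe set, dim at a mean of 5.55, gave -0.02 with overlapping groups. Without Ncstn KO replicate 2 the main difference was -0.26.

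Urod, uroporphyrinogen decarboxylase, which trims the side chains of the ring, read 12.28 and 12.30 in WT and 12.53 and 12.49 in Ncstn KO. It showed the smallest spread of the 8 genes, with SDs of 0.01 in WT and 0.03 in Ncstn KO (n = 2 each), and was higher by 0.22 (SE 0.07, limma adjusted p = 0.621) or 1.17-fold. The second Urod probe set gave 0.27 with separate groups, and the pairs of females and of males gave 0.23 and 0.21. The main Urod probe set also ends in x_at, the suffix of sets in which some probes can match other transcripts. Scaled to the hybridization controls, the difference was 0.03, still with separate groups.

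The last 3 enzymes act in or at mitochondria. Cpox, coproporphyrinogen oxidase, read 9.60 and 9.31 in WT and 9.15 and 8.84 in Ncstn KO. Both Ncstn KO arrays were lower, a difference of -0.46 (SE 0.21, limma adjusted p = 0.776) or 1.38-fold, and it was -0.17 between the females and -0.76 between the males. The 2 dimmer Cpox probe sets, at means of 6.27 and 3.58, gave 0.05 and -0.31 with overlap.

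Ppox, protoporphyrinogen oxidase, read 9.08 and 8.87 in WT and 8.82 and 9.34 in Ncstn KO. The Ncstn KO arrays held both the highest and the lowest value, and the difference of 0.10 (SE 0.24, limma adjusted p = 0.991) turned to -0.09 under scaling to the hybridization controls. A second Ppox probe set gave 0.14 with overlap. The dimmest, at a mean of 2.46, gave -0.08 with both Ncstn KO arrays lower by a small amount.

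Fech, ferrochelatase, which inserts iron into protoporphyrin to finish heme, read 11.24 and 10.91 in WT and 10.98 and 10.66 in Ncstn KO. The groups overlapped and the difference was -0.26 (SE 0.17, limma adjusted p = 0.912), or -0.09 without either WT replicate 1 or Ncstn KO replicate 2. Its 4 probe sets disagreed. The second, at 11.10 and 10.59 in WT and 10.51 and 10.27 in Ncstn KO, gave -0.45 with separate groups. The third, at 9.25 and 8.85 in WT and 9.32 and 9.32 in Ncstn KO, gave 0.27 with separate groups the other way. The fourth, dim at a mean of 4.40, gave -0.03.

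Across the 19 probe sets, 0 passed the limma test over all 34945 probe sets that name 1 gene, in which 0% passed. Both Ncstn KO arrays lay below each WT array in 5 probe sets and above them in 5, against 13.8% and 19.1% of all probe sets. All probe sets of a gene gave separate groups on one side for Alas1, Urod and, with its single probe set, Alas2. For Uros and Cpox only the brightest did. With the mean of all probe sets of a gene in place of the brightest, Alas2 was the only member left with both Ncstn KO arrays below (13.0% of all genes), and the differences became -0.24 for Cpox and -0.21 for Uros.

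**Figure D2:**
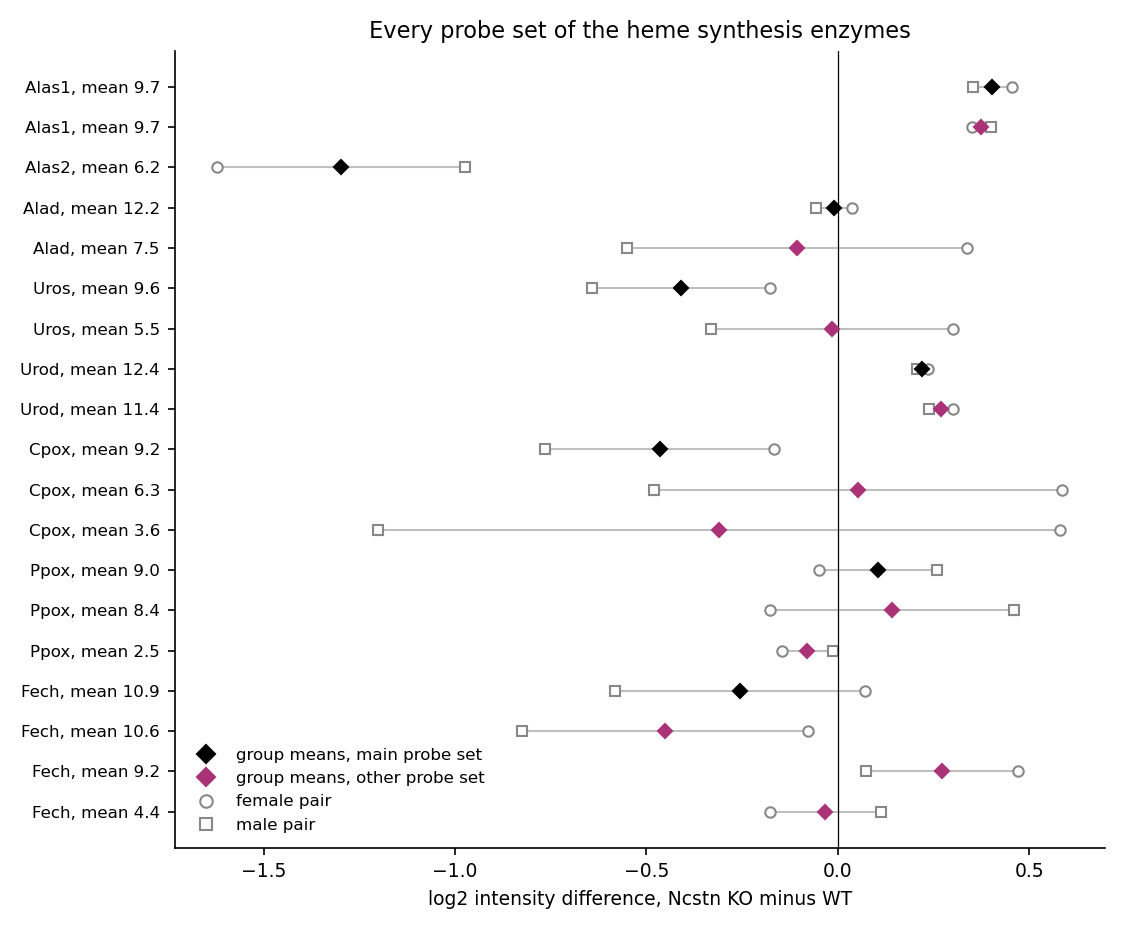
Log2 intensity difference, Ncstn KO minus WT (horizontal axis), for each of the 19 probe sets, labelled with the gene and the mean log2 intensity over 4 arrays; black diamonds are group means of the main probe set, purple diamonds of the others, and open circles and squares the female and male pairs. The probe sets of Alas1 and of Urod lie together above 0, Alas2 lies at -1.30, and the Fech probe sets fall on both sides of 0.

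The main probe sets of Uros, Cpox and Fech had nearly the same profile over the arrays. In each of the 3, WT replicate 1 was the highest array, Ncstn KO replicate 2 the lowest, and replicate 1 above replicate 2 within each genotype. Ncstn KO replicate 1 lay above WT replicate 2 for Fech but below it for Uros and Cpox. Other probe sets differed: the second of Uros and the second of Cpox were highest on Ncstn KO replicate 1. The values below are of main probe sets. After each gene was centred on its own mean, the root mean square difference over the 4 arrays was 0.05 between Uros and Cpox, 0.10 between Uros and Fech and 0.11 between Cpox and Fech, the smallest of all pairs among the 8 genes. Of 2213 other genes whose mean exceeded the median and whose arrays spanned 0.5 or more, 21 were as close to Uros as Cpox was, 59 as close to Fech as Uros was, and 68 as close to Fech as Cpox was. The 5 of them nearest to Fech were Zmat1, Tra2a, Plekha1, Rell1 and Ndufa9, at 0.0146 to 0.0327. Alas1 and Urod were the next closest pair at 0.13, and 152 of the 2213 genes were as close to Alas1. Urod itself spans less than 0.5, so genes with as small a span as Urod were not counted there. Alas2 stood apart from the other 7, at 0.60 to 0.95.

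Among the same 2213 genes, those with a profile nearest to that of Alas2 were Rag1 (0.12), Dynlt1f (0.15), Nr4a2 (0.16), Sdc1 (0.20) and Ncstn itself (0.21), by the same measure over 4 arrays. Alas2 itself is dimmer than the genes searched. Without that limit, Trim10 (mean 5.57), named after its values were seen, was nearer than Rag1 at 0.10, and 1 of 18185 genes was nearer still. Rag1, the recombinase gene of early lymphoid cells, read 9.21 and 9.06 in WT and 7.26 and 8.49 in Ncstn KO. In Alas2 and Rag1 the arrays had the same order, with WT replicate 1 highest and Ncstn KO replicate 1 lowest.

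Erythroid markers did not share a direction with Alas2. Of 14 markers of the erythroid lineage 11 were measured, and 0 passed limma in either direction (2 at an unadjusted p under 0.05). Both Ncstn KO arrays lay below each WT array for 2 (12.8% of all genes) and above for 1 (21.3%). The other 8 overlapped, and the median of the 11 was 0.03. Trim10, an erythroid protein gene, read 6.23 and 6.02 in WT and 4.58 and 5.48 in Ncstn KO (difference -1.10, SE 0.35, limma adjusted p = 0.604). Slc4a1, the anion exchanger of red cells, read 9.94 and 8.96 in WT and 7.92 and 8.89 in Ncstn KO (difference -1.05, SE 0.43, limma adjusted p = 0.75). Both had the array order of Alas2. Rhag, a red cell membrane channel gene, read 7.15 and 6.44 in WT and 8.07 and 7.61 in Ncstn KO, the reverse side (difference 1.04, SE 0.33, limma adjusted p = 0.602). The summed intensity of the 11 markers, most of it from Car2 (13.26 to 13.37), was 13192 and 11583 in WT and 12325 and 12316 in Ncstn KO. Hba-a1 and Epb42 were the dimmest, at 3.04 to 3.20 and 3.26 to 3.53. Probe sets that name several genes were left out, so whether such a set reads Hba-a1 was not examined. In RNA from sorted cells, fewer cells of a type and less RNA per cell cannot be told apart.

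Regulators of the erythroid heme genes, mostly transcription factors and cofactors beside the receptor gene Epor, had no common direction either. Of 12 regulators measured 0 passed limma in either direction (1 at an unadjusted p under 0.05). Both Ncstn KO arrays lay above both WT arrays for 3 (21.3% of all genes) and below for 3 (12.8%). The other 6 overlapped, and the median difference of the 12 was 0.08. Gata1 and Klf1, named after their values were seen, encode factors that drive erythroid genes including Alas2. Gata1 read 9.40 and 9.02 in WT and 10.05 and 8.90 in Ncstn KO (difference 0.27), and Klf1 8.35 and 8.55 in WT and 9.44 and 7.79 in Ncstn KO (difference 0.16). Both were highest on Ncstn KO replicate 1, the array on which Alas2 was lowest. Both were lowest on Ncstn KO replicate 2, where Alas2 also lay below both WT arrays. Their relation to Alas2 was not tested. The 3 regulators with the smallest p were Ppargc1a, a coactivator that induces Alas1 in liver, at 5.90 and 5.95 against 4.90 and 3.18 (difference -1.89, SE 0.54, limma adjusted p = 0.544); Epor, the erythropoietin receptor gene, with 0.57 (SE 0.25); and Nrf1, an activator of mitochondrial genes, with -0.39 (SE 0.19).

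**Figure D3:**
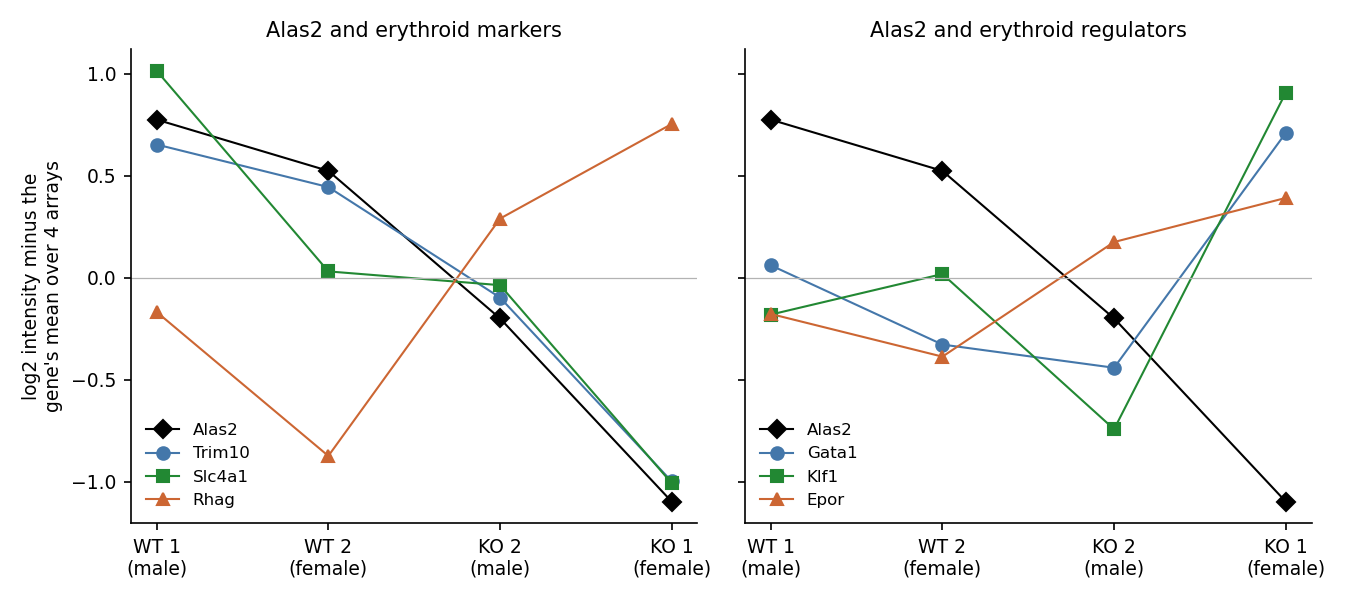
Log2 intensity minus the mean of the gene over the 4 arrays (vertical axis) on each array (horizontal axis), for Alas2 with 3 erythroid markers (left) and 3 regulators (right); lines join the values of a gene and carry no order in time. Trim10 and Slc4a1 share the array order of Alas2, and Rhag lies on the reverse side. Gata1 and Klf1 are highest on Ncstn KO replicate 1, where Alas2 is lowest, and lowest on Ncstn KO replicate 2.

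A further list of 18 genes held mostly transporters of heme, its precursors and iron, beside the protease genes Clpx and Clpp and others, and 16 were measured. Limma called 0 in either direction (2 at an unadjusted p under 0.05), and the median difference was -0.03. On both Ncstn KO arrays 3 lay above WT (21.3% of all genes) and 3 below (12.8%). Slc25a37, the mitochondrial iron importer mitoferrin 1 that supplies Fech, read 10.26 and 10.28 in WT and 9.76 and 9.98 in Ncstn KO (difference -0.40, SE 0.15, limma adjusted p = 0.695). Slc48a1, a heme transporter of endosomes and lysosomes, read 10.22 and 10.30 in WT and 10.65 and 10.64 in Ncstn KO (difference 0.38, SE 0.13, limma adjusted p = 0.615). The membrane transporter gene Flvcr1 had 0.30 (SE 0.14).

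Of 9 genes of heme breakdown and heme sensing limma called 0 (0 at an unadjusted p under 0.05). On both Ncstn KO arrays 1 lay above WT (21.3% of all genes) and 1 below (12.8%), and 7 overlapped. The median of the 9 genes was 0.02. Their differences ran from -0.19 to 0.19, and the 3 with the smallest p were Nr1d2, a heme-binding nuclear receptor (-0.19), Hebp1, a heme-binding protein (0.19), and Blvra, biliverdin reductase A (-0.13). Of 13 measured genes of iron supply and iron-sulfur clusters limma called 0 (1 at an unadjusted p under 0.05), with a median of -0.01. Both Ncstn KO arrays lay above WT for 2 (21.3% of all genes) and below for 1 (12.8%), and 10 overlapped. Slc40a1, the iron exporter ferroportin, read 8.17 and 7.56 in WT and 8.50 and 8.84 in Ncstn KO (difference 0.80, SE 0.28, limma adjusted p = 0.652). Tfrc, the transferrin receptor, had 0.25 (SE 0.12) and Lyrm4, an iron-sulfur assembly factor, -0.11 (SE 0.08).

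Heme proteins of other cells were listed as users of the product. Of 8 genes limma called 0 (1 at an unadjusted p under 0.05), with 2 above (21.3% of all genes) and 6 overlapping and a median of 0.14. Cybb, the heme-carrying subunit of the phagocyte oxidase, read 9.58 and 8.85 in WT and 9.95 and 10.33 in Ncstn KO (difference 0.92, SE 0.28, limma adjusted p = 0.588), and its partner Cyba had 0.16 (SE 0.10). Prg2, an eosinophil granule gene whose product carries no heme, had 1.75 (SE 1.11), with WT replicate 2 at 4.72 and the other arrays at 7.69 to 8.88. The markers of 2 other lineages were brighter on both Ncstn KO arrays. The summed intensity of 8 granulocyte-monocyte markers was 40902 to 41873 in WT and 53746 to 56513 in Ncstn KO. That of 4 basophil-mast cell markers was 1778 to 1866 in WT and 3888 to 4525 in Ncstn KO. Both Ncstn KO arrays lay above WT for 6 of the 8 and for 4 of the 4, against 21.3% of all genes. The summed intensity of the 6 megakaryocyte markers was 1252 and 2880 in WT and 2889 and 2859 in Ncstn KO, with overlap. Both Ncstn KO arrays lay above WT for 3 of the 6 (21.3% of all genes) and below for 0 (12.8%), with a median of 0.56. Itga2b read 7.56 and 8.02 in WT and 9.28 and 8.97 in Ncstn KO (difference 1.33, SE 0.25, limma adjusted p = 0.295). Ppbp read 5.52 and 9.46 in WT and 4.46 and 6.84 in Ncstn KO (difference -1.84). B cell markers (4 measured) summed to 2675 and 3155 in WT and 2513 and 2907 in Ncstn KO, with a median difference of -0.18. Most of that sum was Cd79b (11.13 to 11.37). Ms4a1 read 7.79 and 7.94 in WT and 5.74 and 5.74 in Ncstn KO (difference -2.12, SE 0.24, limma adjusted p = 0.161). On both Ncstn KO arrays 1 B cell marker lay below WT (12.8% of all genes), 1 above (21.3%), and 2 overlapped. T-NK cell markers (4 measured) summed to 7005 and 6766 in WT and 6915 and 6535 in Ncstn KO, with a median of -0.06. The part of all these markers in the differences of the heme genes was not tested.

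**Figure D4:**
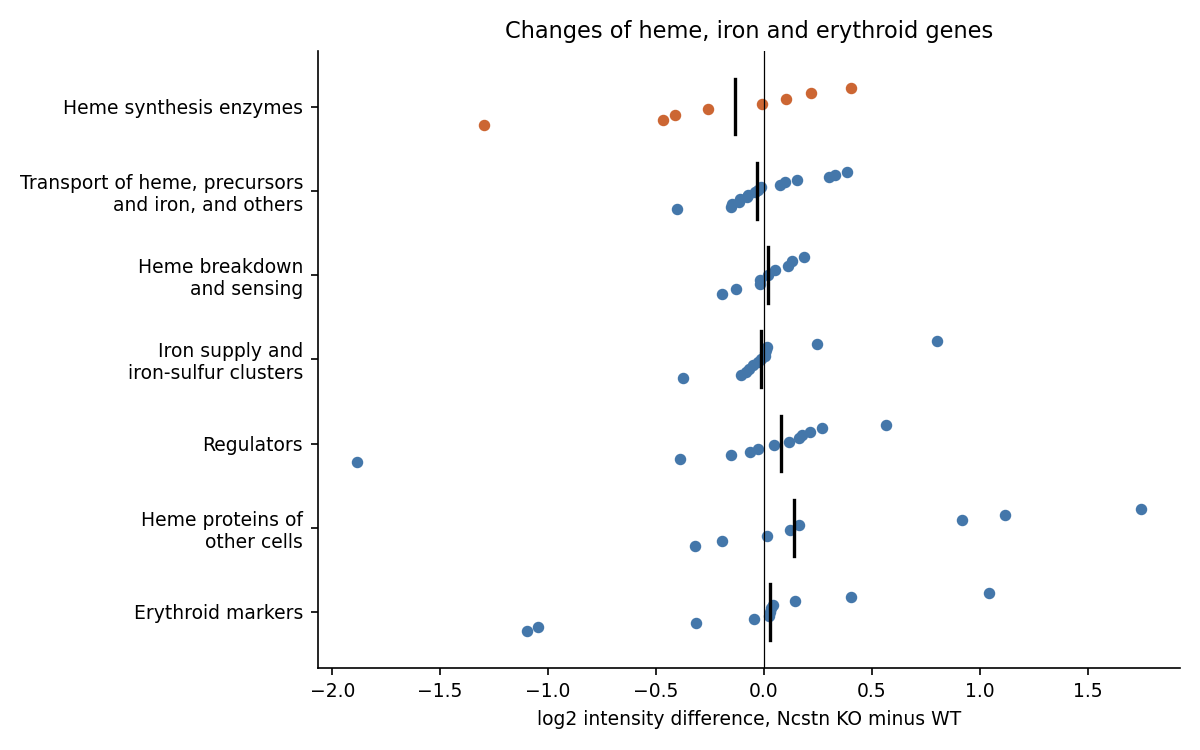
Log2 intensity difference, Ncstn KO minus WT (horizontal axis), for each of the 8 heme synthesis genes described (orange) and of 6 related lists (blue); black lines are medians. The medians lie between -0.13 and 0.14, and Alas2 at -1.30 is the leftmost of the heme synthesis enzymes.

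Sex was balanced over genotype and gave a second comparison of the same genes. In a limma fit with genotype and sex, 0 of the 8 passed between females and males, against 0.022% of all genes, and Alad alone had an unadjusted p under 0.05. Both female arrays lay above both male arrays for Alad (29.0% of all genes) and below for Ppox (11.5% of all genes), and the other 6 overlapped. Alad was higher in females by 0.22 (SE 0.07, limma adjusted p = 0.574), 0.17 in WT and 0.26 in Ncstn KO. Ppox differed by -0.37 (SE 0.18, limma adjusted p = 0.576), -0.21 in WT and -0.52 in Ncstn KO. Alas2, an X-linked gene, differed by -0.58 (SE 0.27, limma adjusted p = 0.574), with -0.25 in WT and -0.90 in Ncstn KO. The median over the 8 genes was 0.02, beside 0.07 over all genes.

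Of 14 other settings, 5 leave the differences as they are by construction and alter only the test. In the 9 others the differences between genotypes kept their sign for Alas1, Alas2, Uros, Urod, Cpox and Fech. For all of these but Fech the groups were separate, so leaving out 1 array or adding the offset could not turn the sign. Alas2 has 1 probe set, so the mean of all probe sets could not move it either. None of the 8 genes passed in any of the 14, and the lowest limma adjusted p was 0.0942, for Alas2 without Ncstn KO replicate 2, within a range of 0.0942 to 1.0 over its 14 settings. Alad and Ppox took both signs. Scaled to the hybridization controls, 5 genes had both Ncstn KO arrays below each WT array, Alad and Fech being added, but so had 44.6% of all genes, while Alas1 and Urod still lay above, beside 6.73% of all genes. Without Ncstn KO replicate 1 the number was also 5, by the single array that remained, where 40.0% of all genes lay below.

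**Figure D5:**
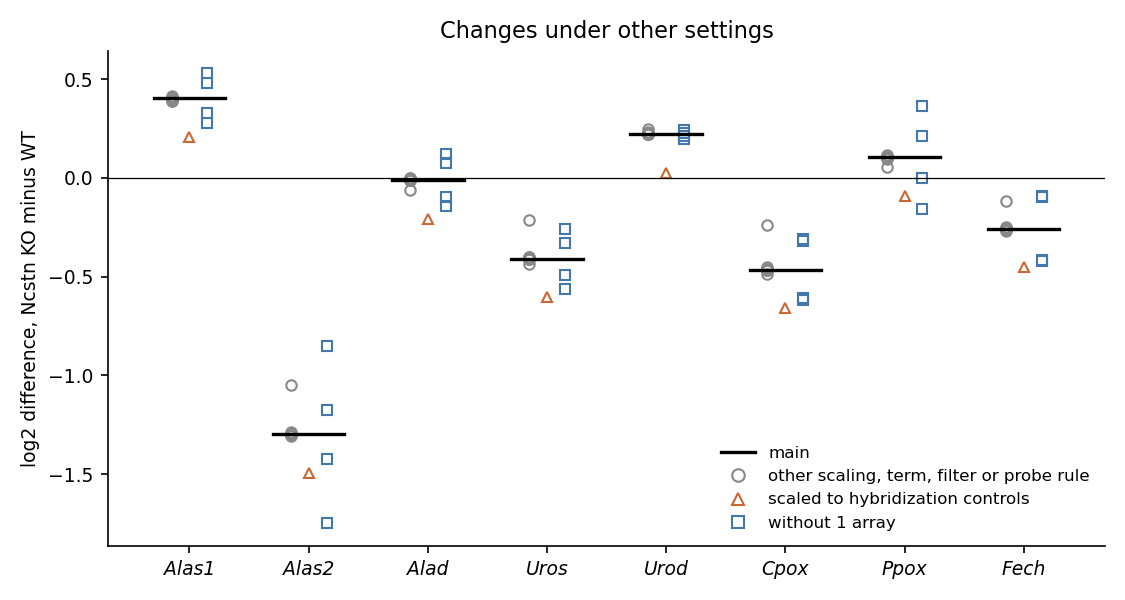
Log2 difference, Ncstn KO minus WT (vertical axis), of each heme synthesis gene as reported (black line), under other scalings, terms, filters and probe rules (grey circles), scaled to the hybridization controls (orange triangles) and without 1 array (blue squares). The points of Alas2 lie between -1.75 and -0.85, those of Urod between 0.03 and 0.25, and those of Alad and Ppox on both sides of 0.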

How the data were processed

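RNA of sorted LSK cells from 4 mice was measured on Affymetrix arrays after amplification from 5 ng of total RNA. The authors deposited RMA intensities per probe set, as the submitters' processing notes name the method; no software is given in the sources used here. Their range, 3.32 to 23643, marks a linear scale, so the log2 was computed first. Without single-probe values, signal over background could not be judged.

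Of 45101 probe sets 64 were controls. Symbols came from the platform annotation: 34945 other probe sets named 1 gene, 932 several and 9160 none. Of the first kind 34741 matched the RefSeq table of GRCm38.p6 by Entrez identifier, with 0 symbols changed. The brightest probe set on average stood for a gene. Members of the lists that are not counted as measured were not analysed here.

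Genotypes were compared with limma 3.58.1 in R 4.3.3 (lmFit, eBayes with trended variance; two-sided; Benjamini-Hochberg over 18193 genes at 0.05) with genotype as the only term, 2 residual and on average 4.11 prior degrees of freedom; sexes with genotype and sex. The script was tested on simulated data. All members are named, then Ncstn and up to 3 genes per list with the smallest p. Other list genes were named outside this rule: Gata1, Klf1, Kit, Cd34, Car2, Hba-a1, Epb42, Ppbp and Cd79b. The likeness rule names 5 genes. The members and lists were chosen with earlier results of these data known. Alternatives covered scaling, blocks, probe set rule, filter, an offset of 16 and leaving out arrays. Promoter windows came from RefSeq. Figures used matplotlib 3.10.9.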

Additional observations from a re-analysis of the deposited data

Results flagged for a closer look

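For 3 of the 8 heme synthesis genes the difference between Ncstn KO and WT had one sign in the females and the other in the males, which was so for 44.3% of all genes. Fech differed by 0.0704 between the females and by -0.58 between the males. Ppox differed by -0.0493 between the females and by 0.26 between the males. Alad differed by 0.0364 between the females and by -0.0577 between the males. With 1 array per sex and genotype these differences between the sexes were not tested. The remaining 5 genes had the same sign in both sexes.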

How the results depend on the processing

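The fit called 0 of 18193 genes between genotypes (1237 at an unadjusted p under 0.05), but 3 after quantile normalization, 62 with arrays centred on the median, and 0 to 27 without 1 array (23 and 27 without Ncstn KO replicates 1 and 2). None of the heme synthesis genes was among these, and 0 of the 8 passed under any setting. The number of members with both Ncstn KO arrays below each WT array, 3 as reported, was 5 with scaling to the hybridization controls (44.6% of all genes), 1 with the mean of all probe sets of a gene (13.0%), and 3 to 5 without 1 array (22.8% to 40.0%); above, it was 2 to 3 without 1 array (32.0% to 48.9%). The median difference of the 8 genes was -0.33 under the hybridization controls and -0.28 to -0.0932 without 1 array. Ppox turned to -0.0909 under the hybridization controls and ran from -0.16 to 0.36 without 1 array (-0.0019 without WT replicate 2), and Alad turned to 0.0001 after quantile normalization and ran from -0.14 to 0.12 (0.07 without WT replicate 2). Between the sexes, the fit called 4 genes, 58 with arrays centred on the median and 0 without a variance trend; Cpox turned to -0.0019 after quantile normalization and Fech to 0.0866 with arrays centred. The cause of these moves was not tested. The replicate numbers were not used as pairs in the main fit. Deviations of same-numbered arrays correlated at -0.24 over 18193 genes. These arrays differ in sex, so this value cannot decide whether they were paired. The replicate block called 0 genes, 0 of the 8, and gave a median difference of -0.13. The crossed pairing, chosen after seeing the data, is the same fit as sex as a block and also called 0 genes. Dim signals limit Alas2, the second probe sets of Alad, Uros and Cpox, and Ppargc1a among the regulators, and 2 arrays per group limit every value.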
